A study of Mus musculus with 11 samples.

Results

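The FOXO transcription factor genes Foxo1, Foxo3 and Foxo4, the thioredoxin-interacting protein gene Txnip and the sestrin genes Sesn1, Sesn2 and Sesn3 were read in stem and progenitor cells of mouse bone marrow. They were chosen by symbol and make up 7 of the 54347 genes in the deposited table. All 7 passed the filter on low counts, which left 14915 genes for testing. The sequenced RNA came from haematopoietic stem cells with long-term repopulating capacity (LT-HSCs) and from granulocyte-monocyte progenitors (GMPs) of 4 female C57BL/6NTac mice that carried no labelled mutation and had no labelled treatment. LT-HSCs were lineage-depleted cells, high in both c-Kit and Sca-1, that were positive for CD150 and negative for CD48, and they were divided by endomucin (EMCN), a sialomucin of the cell surface. There were 4 EMCN+ LT-HSC libraries from mice 1 to 4, 3 EMCN- LT-HSC libraries from mice 1, 2 and 4, and 4 GMP libraries from mice 1 to 4. The sources used here gave no age for the mice, and the submitters had removed an EMCN- library for poor quality.

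FOXO proteins are forkhead transcription factors that activate genes of cell cycle arrest, stress resistance and autophagy. When insulin or growth factors activate PI3 kinase, AKT phosphorylates FOXO proteins and they leave the nucleus. In mice, loss of FOXO factors, and of Foxo3 alone, is known to impair the long-term function of haematopoietic stem cells. TXNIP is an alpha-arrestin that binds thioredoxin and lowers glucose uptake, and its gene is switched on by the glucose-sensing factors MondoA and ChREBP with their partner MLX. Sestrins are stress proteins that restrain the growth kinase complex mTORC1 through GATOR2 and AMPK.

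The libraries held 3.63 to 11.1 M estimated counts each. Levels are counts per M counts (CPM) scaled with trimmed-mean (TMM) factors. A gene with 0 counts in a library may have a level of up to 3 counts, which is 0.209 to 0.705 CPM depending on the library. TMM factors were 1.10 to 1.31 in LT-HSC libraries and 0.668 to 0.757 in GMP libraries, so the scaling itself differs between these populations. All 10 LT-HSC marker genes read as a check had counts in each population. Their summed level was 1238 to 1451 CPM in EMCN+ LT-HSCs, 848 to 987 CPM in EMCN- LT-HSCs and 28.5 to 32.2 CPM in GMPs. The 10 GMP marker genes summed to 22.8 to 28.9 CPM in EMCN+ LT-HSCs, 26.0 to 33.8 CPM in EMCN- LT-HSCs and 15341 to 18651 CPM in GMPs, with Ctsg at 0 in EMCN+ LT-HSCs and Fcnb at 0 in EMCN- LT-HSCs. These sums are not independent of the sort. The LT-HSC list holds Slamf1 (CD150) and Ly6a (Sca-1) and the GMP list Cd48, whose products defined the LT-HSCs.

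The comparison of LT-HSCs with GMPs asks how stem cells differ from committed myeloid progenitors. The 7 LT-HSC libraries came from 4 mice, which also gave the GMPs, so n = 7 counts libraries and not animals. All 7 genes were higher in LT-HSCs, with log2 changes from 0.98 for Foxo4 to 3.48 for Txnip. Txnip was 11.2 times, Sesn3 7.53 times and Foxo1 5.48 times as high in LT-HSCs as in GMPs. These sizes depend on the scaling: with total-count scaling, which moved the median of all tested genes by 0.78, the log2 changes were 4.26 for Txnip, 3.69 for Sesn3, 3.24 for Foxo1, 2.53 for Foxo3, 2.38 for Sesn1, 1.99 for Sesn2 and 1.75 for Foxo4. Of all tested genes 62.5% differed in this comparison by the edgeR quasi-likelihood test at a Benjamini-Hochberg adjusted p under 0.05, and 32.5% were higher in LT-HSCs. The median log2 change was 1.75 over the 7 genes and 0.03 over all tested genes. A larger log2 change than that of Txnip was found in 5.59% of tested genes, than that of Sesn3 in 7.42%, than that of Foxo1 in 9.27% and than that of Foxo4 in 21.7%. Markers of other cells differed as well. The 5 mast cell and basophil genes summed to 0.195 to 2.60 CPM in LT-HSCs and 96.6 to 203.5 CPM in GMPs, and all 4 tested were lower in LT-HSCs. The 7 macrophage genes summed to 7.67 to 15.5 CPM in LT-HSCs and 82.3 to 92.0 CPM in GMPs. Only 3 of these 7 were lower by the edgeR test, 4 did not pass, and 3 of the 7 changes were positive. Megakaryocyte and T cell markers went the other way, with 4 of 4 and 2 of 2 tested genes higher in LT-HSCs. Their part in the values of the 7 genes was not tested. In bulk samples, fewer cells that express a gene and less of its RNA per cell cannot be told apart.

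The FOXO genes come first, as the transcription factors of the set. Foxo3 had 202, 241, 180.4 and 192 CPM in EMCN+ LT-HSCs, 187, 194 and 201 CPM in EMCN- LT-HSCs, and 56.8, 57.1, 59.2 and 64.2 CPM in GMPs. The fractions of the LT-HSCs overlapped, and every LT-HSC library lay above every GMP library. Foxo3 averaged 199.7 ± 19.7 CPM in LT-HSCs (SD, n = 7) and 59.3 ± 3.42 CPM in GMPs (n = 4), a log2 change of 1.75 ± 0.10 (SE; edgeR quasi-likelihood adjusted p = 2.3e-12).

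Foxo1 had 27.7, 29.8, 29.0 and 25.6 CPM in EMCN+ LT-HSCs, 23.1, 14.5 and 16.2 CPM in EMCN- LT-HSCs, and 3.47, 4.57, 5.69 and 3.36 CPM in GMPs. Its 3 populations did not overlap: the EMCN+ libraries were all above the EMCN- libraries, and those were all above the GMP libraries. The mean was 23.7 ± 6.12 CPM in LT-HSCs (SD, n = 7) and 4.27 ± 1.09 CPM in GMPs (n = 4), a log2 change of 2.45 ± 0.19 (SE; edgeR adjusted p = 5.82e-10). In GMPs the libraries held 22, 28, 25 and 18 counts of Foxo1.

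Foxo4 lies on the X chromosome and had the smallest log2 change of the 7 genes between LT-HSCs and GMPs. It had 25.7, 29.6, 19.2 and 25.0 CPM in EMCN+ LT-HSCs, 22.2, 26.2 and 18.6 CPM in EMCN- LT-HSCs, and 15.9, 9.14, 11.6 and 11.6 CPM in GMPs. The lowest LT-HSC library was still above the highest GMP library. The log2 change was 0.98 ± 0.17 (SE; edgeR adjusted p = 4.59e-05), from means of 23.8 ± 3.99 CPM in LT-HSCs (SD, n = 7) and 12.1 ± 2.83 CPM in GMPs (n = 4). Foxo6, the remaining family member, had 4 counts over the 4 EMCN+ LT-HSC libraries and 0 counts in the EMCN- LT-HSC and GMP libraries, and it was not tested.

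Txnip, whose product holds back thioredoxin and glucose uptake, had the largest log2 change. It had 504, 546, 512 and 543 CPM in EMCN+ LT-HSCs, 365, 442 and 475 CPM in EMCN- LT-HSCs, and 50.2, 33.6, 43.0 and 45.2 CPM in GMPs. Every EMCN+ library was above every EMCN- library, and the lowest LT-HSC library was well above the highest GMP library. LT-HSCs averaged 484 ± 64.0 CPM (SD, n = 7) and GMPs 43.0 ± 6.93 CPM (n = 4), a log2 change of 3.48 ± 0.12 (SE; edgeR adjusted p = 1.98e-15, 95% interval 3.23 to 3.74).

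Among the sestrins, Sesn3, known as a FOXO target gene, differed most. It had 72.5, 95.3, 68.1 and 80.9 CPM in EMCN+ LT-HSCs, 74.0, 69.8 and 76.1 CPM in EMCN- LT-HSCs, and 9.94, 6.69, 13.0 and 11.6 CPM in GMPs. EMCN+ and EMCN- libraries were interleaved, and all lay above the GMP libraries. Sesn3 averaged 76.7 ± 9.22 CPM in LT-HSCs (SD, n = 7) and 10.3 ± 2.70 CPM in GMPs (n = 4), a log2 change of 2.91 ± 0.15 (SE; edgeR adjusted p = 9.99e-13). Sesn1, known as a p53 target gene, had 70.6, 72.9, 68.6 and 75.2 CPM in EMCN+ LT-HSCs, 63.3, 69.3 and 65.1 CPM in EMCN- LT-HSCs, and 22.1, 17.1, 22.1 and 29.9 CPM in GMPs. The fractions overlapped by a single library, and the GMP libraries lay below all others. Its log2 change was 1.60 ± 0.12 (SE; edgeR adjusted p = 3.91e-10), from 69.3 ± 4.16 CPM in LT-HSCs (SD, n = 7) and 22.8 ± 5.26 CPM in GMPs (n = 4).

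Sesn2, which encodes a leucine sensor and is known to be induced by stress, had the lowest counts of the set. It had 7.35, 6.07, 6.46 and 4.50 CPM in EMCN+ LT-HSCs, 6.73, 6.30 and 6.11 CPM in EMCN- LT-HSCs, and 2.05, 1.96, 5.01 and 2.05 CPM in GMPs, where the libraries held 13, 12, 22 and 11 counts. GMP replicate 3 stood above EMCN+ replicate 4, which made Sesn2 the only gene of the 7 whose LT-HSC and GMP libraries overlapped. The log2 change was 1.20 ± 0.31 (SE; edgeR adjusted p = 0.00213), and 1.62 ± 0.31 without GMP replicate 3 (edgeR adjusted p = 0.000172). For the other 6 genes every LT-HSC library was above every GMP library, as for 25% of all tested genes.

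**Figure D1:**
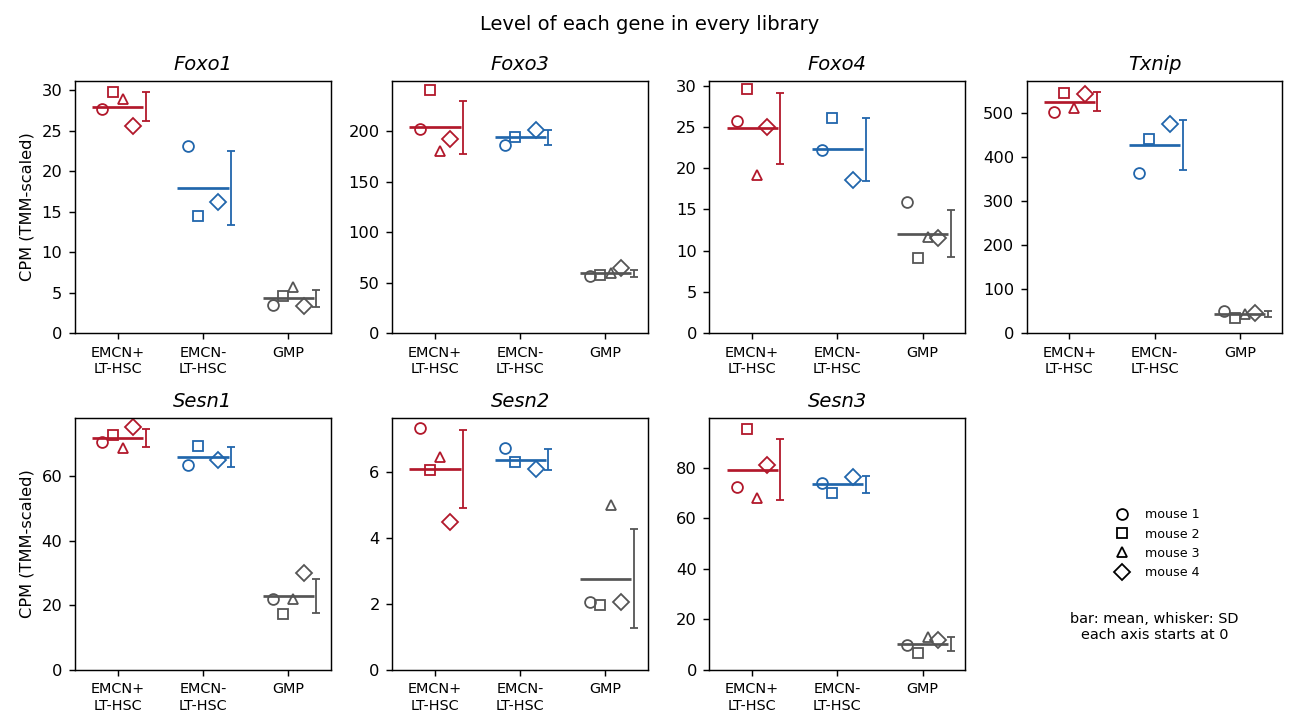
Level of each gene in CPM (linear axes that start at 0, TMM-scaled) in every library of EMCN+ LT-HSCs, EMCN- LT-HSCs and GMPs, with the mean as a bar, the SD as a whisker and the mouse as the symbol. Txnip sits at 365 to 546 CPM in LT-HSCs and 33.6 to 50.2 CPM in GMPs, and Sesn2 shows a GMP library at 5.01 CPM within the LT-HSC range.

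The same 7 genes were set against GMPs in each fraction. The EMCN+ and the EMCN- comparison share the 4 GMP libraries, so their values are given side by side and are not independent. All 7 genes were higher in EMCN+ LT-HSCs than in GMPs, where 61.3% of tested genes differed and 31.9% were higher, and all 7 were higher in EMCN- LT-HSCs than in GMPs, where 52.7% differed and 28.3% were higher. The log2 change of Foxo1 was 2.73 ± 0.21 (SE) in EMCN+ and 2.09 ± 0.22 in EMCN- LT-HSCs, and that of Txnip 3.61 ± 0.13 and 3.31 ± 0.13 in the same order. Values for Foxo3 were 1.78 ± 0.10 in EMCN+ and 1.71 ± 0.11 in EMCN- LT-HSCs, and for Foxo4 1.04 ± 0.19 and 0.89 ± 0.20. Among the sestrins, Sesn3 had log2 changes of 2.96 ± 0.16 in EMCN+ and 2.85 ± 0.17 in EMCN- LT-HSCs, Sesn1 of 1.66 ± 0.13 and 1.53 ± 0.14, and Sesn2 of 1.18 ± 0.34 and 1.24 ± 0.36. The edgeR adjusted p was highest for Sesn2, at 0.00475 for EMCN+ and 0.00713 for EMCN- LT-HSCs. Within mice, each of the 7 genes had a higher log2 CPM in EMCN+ LT-HSCs than in GMPs in 4 of 4 mice, and in EMCN- LT-HSCs than in GMPs in 3 of 3 mice. The share of all tested genes with this pattern was not determined. For every gene but Sesn2 these counts of mice only repeat that all LT-HSC libraries lay above all GMP libraries.

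**Figure D2:**
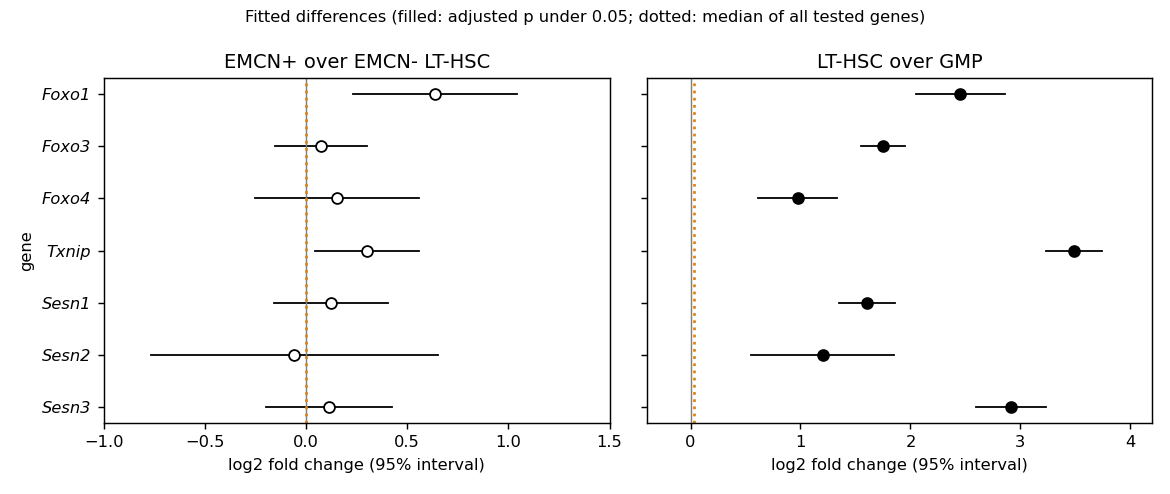
Fitted log2 fold changes of the 7 genes (horizontal axes, bars are 95% intervals) for EMCN+ versus EMCN- LT-HSCs and for LT-HSCs versus GMPs, filled where the edgeR adjusted p was under 0.05, with the median of all tested genes as a dotted line. All 7 points are filled and right of 0 against GMPs, from 0.98 to 3.48, and none is filled between the LT-HSC fractions, where the values run from -0.06 to 0.64.

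The study's central comparison asks how stem cells with endomucin differ from those without it. None of the 7 genes differed between EMCN+ and EMCN- LT-HSCs after adjustment over all tested genes, a comparison in which 1.96% of tested genes differed by edgeR, 0.771% higher and 1.19% lower in EMCN+. DESeq2 and limma-voom also called 0 of the 7. At an unadjusted p under 0.05 edgeR, DESeq2 and limma-voom each had 2 of the 7 genes, Foxo1 and Txnip by edgeR, where the share of all tested genes was 13.9% by edgeR, 13.7% by DESeq2 and 15.8% by limma-voom. Foxo1 and Txnip were also the genes whose EMCN+ libraries all lay above the EMCN- libraries, a pattern found in 7.25% of all tested genes. The median log2 change was 0.12 over the 7 genes and 0 over all tested genes, and 6 of the 7 changes were positive.

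Foxo1 averaged 28.0 ± 1.82 CPM in EMCN+ LT-HSCs (SD, n = 4) and 17.9 ± 4.54 CPM in EMCN- LT-HSCs (n = 3). The log2 difference was 0.64 ± 0.19 (SE, 95% interval 0.23 to 1.04), with an unadjusted edgeR p of 0.00362 and an adjusted p of 0.106. Within mice 1, 2 and 4 the difference in log2 CPM was 0.26, 1.02 and 0.65, positive in 3 of 3 mice. With mouse as a block the edgeR adjusted p for Foxo1 was 0.143 in all 11 libraries. It was 0.0287 in the 6 LT-HSC libraries of complete pairs, with a log2 difference of 0.63. In that fit of 6 libraries 6.76% of 13435 tested genes passed, against 1.96% of tested genes in the main fit. The adjusted p ran from 0.0287 to 0.344 over all alternatives.

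Txnip averaged 526 ± 21.8 CPM in EMCN+ LT-HSCs (SD, n = 4) and 427 ± 56.5 CPM in EMCN- LT-HSCs (n = 3), a log2 difference of 0.30 ± 0.12 (SE, 95% interval 0.04 to 0.56). The unadjusted edgeR p was 0.0239 and the adjusted p 0.258, with a range from 0.0583 to 0.703 over the alternatives. Within mice 1, 2 and 4 the log2 difference was 0.46, 0.31 and 0.19, positive in 3 of 3 mice. Without EMCN- replicate 1 the log2 difference of Txnip was 0.20.

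The other 5 genes had smaller differences. Foxo3 had a log2 difference of 0.07 ± 0.11 (SE, 95% interval -0.15 to 0.30), from 204 ± 26.1 CPM in EMCN+ LT-HSCs (SD, n = 4) and 194 ± 7.15 CPM in EMCN- LT-HSCs (n = 3), and it was -0.01 without EMCN+ replicate 2. Sesn3 differed by 0.11 ± 0.15 (95% interval -0.20 to 0.43), Sesn1 by 0.12 ± 0.14 (-0.16 to 0.41) and Foxo4 by 0.15 ± 0.19 (-0.25 to 0.56). Single libraries moved these values: Sesn3 ran from 0.01 without EMCN+ replicate 2 to 0.18 without EMCN+ replicate 3, and Foxo4 from 0.04 without EMCN- replicate 4 to 0.28 without EMCN- replicate 2. Sesn2 had the only negative value, -0.06 ± 0.34 (95% interval -0.77 to 0.65), which was 0.05 without EMCN+ replicate 4 and 0.06 with total-count scaling. The edgeR adjusted p of these 5 genes lay between 0.76 for Sesn1 and 0.965 for Sesn2. The intervals leave room for changes in either direction in all 5. Foxo4 and Sesn1 were higher in EMCN+ in 3 of 3 mice, Foxo3 and Sesn3 in 2 of 3 mice and Sesn2 in 1 of 3 mice. For these counts, and those of Foxo1 and Txnip, the share of all tested genes was not determined, so they are descriptions only. The counts of Foxo1 and Txnip repeat that all their EMCN+ libraries lay above the EMCN- libraries.

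**Figure D3:**
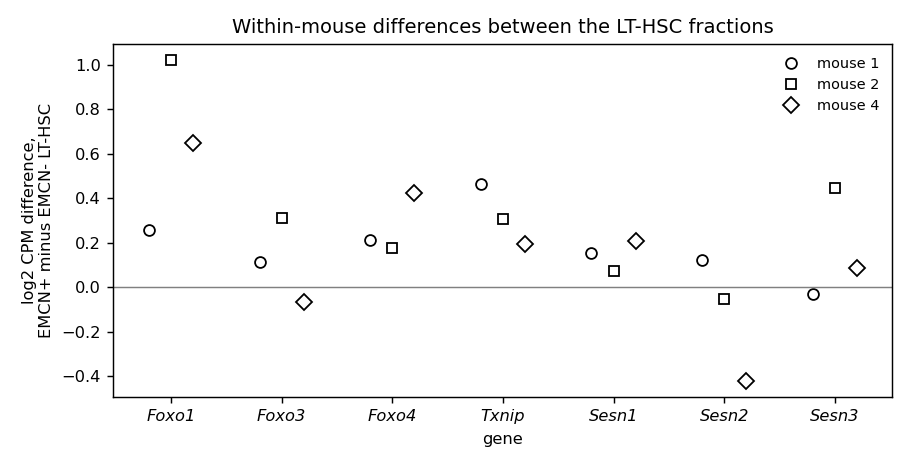
Difference in log2 CPM, EMCN+ minus EMCN- LT-HSC, within mice 1, 2 and 4 (symbols) for each of the 7 genes, with a line at 0. Foxo1 (0.26 to 1.02) and Txnip (0.19 to 0.46) lie above 0 in all 3 mice, as do Foxo4 and Sesn1, while Sesn2 runs from -0.42 to 0.12.

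Cell type markers were also read between the LT-HSC fractions, where 0.771% of all tested genes were higher and 1.19% lower in EMCN+. Of the 10 LT-HSC markers 4 were higher in EMCN+ LT-HSCs, and of the 10 GMP markers 1 was lower. The summed levels of both lists are given above. The 10 endothelial markers summed to 128 to 174 CPM in EMCN+ LT-HSCs and to 119 to 133 CPM in EMCN- LT-HSCs, where Cldn5 was at 0, and none of the 7 tested passed. The 8 erythroid markers in the table summed to 16.4 to 20.6 CPM in EMCN+ LT-HSCs, where Car1 was at 0, and to 11.6 to 13.4 CPM in EMCN- LT-HSCs, and 1 of the 7 tested was lower in EMCN+. The 7 megakaryocyte markers summed to 53.6 to 64.2 CPM in EMCN+ LT-HSCs and to 90.6 to 130.3 CPM in EMCN- LT-HSCs, none at 0 in either fraction, and 2 of the 4 tested were lower in EMCN+. The part of these markers in the values of Foxo1 and Txnip was not tested.

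The balance within each gene family was read from ratios inside a library, which do not depend on the scaling between libraries. The log2 ratio of Sesn1 to Sesn3 counts was -0.13 ± 0.18 in EMCN+ LT-HSCs (SD, n = 4), -0.15 ± 0.12 in EMCN- LT-HSCs (n = 3) and 1.16 ± 0.28 in GMPs (n = 4). No LT-HSC library was above 0.01 and no GMP library below 0.77, so GMPs held relatively more Sesn1 and LT-HSCs relatively more Sesn3. The log2 ratio of Sesn2 to Sesn3 counts was -3.71 ± 0.43 in EMCN+ LT-HSCs, -3.52 ± 0.10 in EMCN- LT-HSCs and -1.98 ± 0.50 in GMPs, again without overlap between LT-HSCs and GMPs. Sesn2 held only 11 to 22 counts in the GMP libraries. The share of all gene pairs whose ratios separate LT-HSCs from GMPs was not determined.

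Among the FOXO genes, the log2 ratio of Foxo4 to Foxo3 counts was -3.04 ± 0.13 in EMCN+ LT-HSCs (SD, n = 4), -3.13 ± 0.28 in EMCN- LT-HSCs (n = 3) and -2.32 ± 0.35 in GMPs (n = 4). The highest LT-HSC library was at -2.89 and the lowest GMP library at -2.64. The log2 ratio of Foxo1 to Foxo3 counts was -2.86 ± 0.16 in EMCN+ LT-HSCs, -3.46 ± 0.39 in EMCN- LT-HSCs and -3.83 ± 0.39 in GMPs. The lowest EMCN+ library and the highest EMCN- library were both at -3.02, and the EMCN- and GMP ranges overlapped. These ratios, and those of the sestrins, are given as descriptions, with no test and no share over other gene pairs. Foxo1 held only 18 to 28 counts in the GMP libraries.

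**Figure D4:**
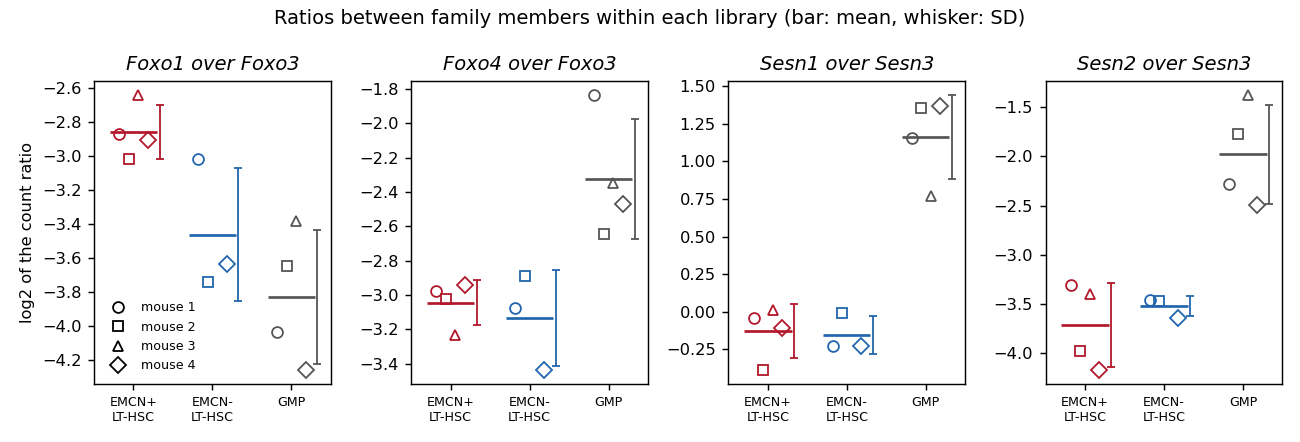
Log2 ratio of the counts of family members within each library (vertical axes) for EMCN+ LT-HSCs, EMCN- LT-HSCs and GMPs, with the mean as a bar, the SD as a whisker and the mouse as the symbol. Sesn1 over Sesn3 lies at or below 0.01 in all 7 LT-HSC libraries and at 0.77 to 1.37 in the 4 GMP libraries, while Foxo1 over Foxo3 overlaps between EMCN- LT-HSCs and GMPs.

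Levels were compared between genes only as CPM per kb of the longest coding transcript. On that scale Txnip was highest in EMCN+ LT-HSCs at 186 ± 7.70 CPM per kb (SD, n = 4), followed by Foxo3 at 29.8 ± 3.81 and Sesn1 at 18.9 ± 0.753 CPM per kb. Sesn3 with 8.68 ± 1.31 and Foxo4 with 7.86 ± 1.36 CPM per kb overlapped and changed places when the union of exons set the length. Foxo1 followed with 3.23 ± 0.210 and Sesn2 with 1.75 ± 0.343 CPM per kb. EMCN- LT-HSCs had the same order, with the same change of places between Sesn3 and Foxo4 and with Txnip at 151 ± 20.0 CPM per kb (n = 3), and there Foxo1 at 2.07 ± 0.524 and Sesn2 at 1.84 ± 0.0920 CPM per kb overlapped. In GMPs Txnip was at 15.2 ± 2.45 CPM per kb (n = 4), Foxo3 at 8.66 ± 0.499, Sesn1 at 5.98 ± 1.38 and Foxo4 at 3.82 ± 0.894, ahead of Sesn3 at 1.13 ± 0.296, Sesn2 at 0.796 ± 0.430 and Foxo1 at 0.493 ± 0.126 CPM per kb. Sesn3 and Sesn2 overlapped in GMPs and changed places with the union of exons, and the lowest Sesn2 libraries lay within the Foxo1 range. Per length, Foxo3 made up 72.9 ± 0.787% of the 3 FOXO genes in EMCN+ LT-HSCs, 75.7 ± 3.02% in EMCN- LT-HSCs and 67.0 ± 4.74% in GMPs. Sesn3 made up 29.5 ± 2.74% of the sestrins in EMCN+ LT-HSCs, 29.6 ± 1.68% in EMCN- LT-HSCs and 14.2 ± 1.70% in GMPs.

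Positions are given in GRCm38. Foxo1 (ENSMUSG00000044167.6) is at chr3:52268336-52353221 on the plus strand, Foxo3 (ENSMUSG00000048756.11) at chr10:42181841-42276755 on the minus strand and Foxo4 (ENSMUSG00000042903.8) at chrX:101254528-101260873 on the plus strand. Txnip (ENSMUSG00000038393.14) is at chr3:96557957-96561883 on the plus strand. Sesn1 (ENSMUSG00000038332.13) is at chr10:41809935-41908424 on the plus strand, Sesn2 (ENSMUSG00000028893.8) at chr4:132492032-132510501 on the minus strand and Sesn3 (ENSMUSG00000032009.8) at chr9:14275067-14333101 on the plus strand. The antisense gene Gm15441 overlaps Txnip and had 99 counts over all 11 libraries, and the antisense gene Gm20402 overlaps Foxo1 with 1 count. On the same strand, Gm38034 overlaps Foxo1 with 112 counts, 9930024M15Rik overlaps Sesn1 with 260 counts and Gm12981 overlaps Sesn2 with 11 counts. Whether the counting used strand was not given in the sources used here, so reads of an overlapping pair may have been divided between its genes.

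The Txnip and Sesn3 promoters are shown because these genes had the largest changes against GMPs, together with a site at Sesn1. The sequences are the 250 bases before the RefSeq start of Txnip at chr3:96557707-96557956 and of Sesn3 at chr9:14276051-14276300, and 30 bases within the Sesn1 transcript at chr10:41810585-41810614, all on the plus strand of GRCm38.p6. By the gene positions given above, Sesn3 starts at chr9:14275067 and Sesn1 at chr10:41809935, both upstream of these RefSeq starts. The Sesn3 stretch thus lies inside the gene by those positions. Capitals mark GTAAACA, the forkhead consensus, or its reverse complement TGTTTAC, and in Txnip also CACGAG, any 5 bases and CACGAG again, the paired element through which MondoA and ChREBP with MLX are known to act on this gene.
Txnip: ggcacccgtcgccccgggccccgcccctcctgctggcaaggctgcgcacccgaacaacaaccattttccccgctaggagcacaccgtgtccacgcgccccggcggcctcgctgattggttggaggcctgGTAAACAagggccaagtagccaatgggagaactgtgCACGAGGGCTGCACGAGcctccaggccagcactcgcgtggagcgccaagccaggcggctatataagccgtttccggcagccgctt
Sesn3: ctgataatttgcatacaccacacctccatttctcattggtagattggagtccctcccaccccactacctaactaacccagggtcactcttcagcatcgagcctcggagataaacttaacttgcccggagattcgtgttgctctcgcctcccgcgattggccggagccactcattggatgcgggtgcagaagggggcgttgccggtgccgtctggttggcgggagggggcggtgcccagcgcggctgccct
Sesn1 site: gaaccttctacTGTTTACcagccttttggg

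RefSeq promoters, each 250 bases before to 50 bases after a start, were held for 6 of the 7 genes in 7 windows. GTAAACA or its reverse complement was in 2 of these 7 windows and in 3.65% of all 32851 windows. The match in Txnip ran from 121 to 115 bases before the start, and that at the upstream Sesn1 start from 23 to 29 bases after it, on the minus strand. The Txnip window was the only one of the 32851 with the CACGAG pair on either strand, from 85 to 69 bases before the start. This motif was written from the known Txnip element, so its presence there is a description. A wider form, CACGNG, any 5 bases and CACGNG, was in 16 windows (0.0487%), Txnip among them. The E-box CACGTG, which overlaps the wider form, was in 7.15% of all windows and in 0 of the 7. A match is not a measured binding site.

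Genes that set FOXO activity came next, from a list of 37. It covered PI3 kinase, AKT, phosphatases, insulin and growth factor receptors, other kinases, acetylation, methylation, ubiquitin genes and the Ywha adaptor genes. Of the 37 genes 36 were tested. Of these, 19 were higher and 8 lower in LT-HSCs than in GMPs, and 9 did not pass, with a median log2 change of 0.23 against 0.03 over all tested genes. In all 14915 tested genes 32.5% were higher and 29.9% lower. The higher genes included Inpp4b, a phosphoinositide phosphatase that limits PI3 kinase signals, with 20.2 ± 2.09 CPM in LT-HSCs (SD, n = 7) and 6.41 ± 3.37 CPM in GMPs (n = 4; log2 1.68 ± 0.22). Pik3r1, the main regulatory subunit of PI3 kinase, had 369 ± 114 CPM in LT-HSCs and 136 ± 9.71 CPM in GMPs (log2 1.38 ± 0.10).

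Lower in LT-HSCs were Pik3r5, a regulatory subunit of the G-protein-coupled PI3 kinase, with 3.39 ± 0.361 CPM against 10.3 ± 1.88 CPM in GMPs (log2 -1.60 ± 0.23), and the catalytic subunit gene Pik3cb with 8.73 ± 1.62 CPM against 20.0 ± 1.55 CPM in GMPs (log2 -1.20 ± 0.17). Skp2, a ubiquitin ligase subunit known to target FOXO1 and p27, had 14.0 ± 2.65 CPM in LT-HSCs and 33.1 ± 1.94 CPM in GMPs (log2 -1.24 ± 0.14). The AKT-related kinase gene Sgk3 had a log2 change of -0.78 ± 0.11 that passed the edgeR test (adjusted p = 3.12e-06), but with total-count scaling it was close to 0 with an adjusted p of 0.975. The edgeR adjusted p of the other 5 genes named here ran from 1.07e-10 for Pik3r1 to 3.31e-06 for Pik3r5.

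Between EMCN+ and EMCN- LT-HSCs 2 of the 36 tested genes that set FOXO activity were higher and none was lower, where 1.96% of all tested genes differed. Pik3r1 had 456 ± 48.3 CPM in EMCN+ LT-HSCs (SD, n = 4) and 253 ± 28.1 CPM in EMCN- LT-HSCs (n = 3), which was 0.85 ± 0.11 (SE) on the log2 scale with an edgeR adjusted p of 0.000882. The insulin receptor gene Insr had 75.7 ± 9.09 CPM in EMCN+ LT-HSCs (SD, n = 4) against 52.5 ± 5.22 CPM in EMCN- LT-HSCs (n = 3), or 0.53 ± 0.13 on the log2 scale (edgeR adjusted p = 0.0387). The call for Pik3r1 held under each alternative. That for Insr was lost with limma-voom (adjusted p = 0.0504) and without robust dispersion (0.0591), and also without EMCN+ replicate 2 (0.149) or 4 (0.0733) and without EMCN- replicate 1 (0.248), 2 (0.0693) or 4 (0.0766). In the blocked fit of the 6 paired LT-HSC libraries, in which 6.76% of 13435 tested genes passed, 5 genes of this list did. The list's median log2 change was 0.02, against 0 over all tested genes.

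Known FOXO target genes were the next list, with 37 of 44 tested. Fasl, Il7r, Ccr7, Ctla4, Pck1, G6pc and Trim63 had too few counts. In LT-HSCs 24 were higher and 7 lower than in GMPs, with a median log2 change of 0.83 against 0.03 over all tested genes, of which 32.5% were higher and 29.9% lower. The sphingosine receptor gene S1pr1 had 13.5 ± 2.55 CPM in LT-HSCs (SD, n = 7) and 1.46 ± 1.13 CPM in GMPs (n = 4; log2 3.17 ± 0.34). The ubiquitin ligase gene Fbxo32, known as atrogin-1 of wasting muscle, had 24.5 ± 3.19 CPM in LT-HSCs and 4.13 ± 2.38 CPM in GMPs (log2 2.55 ± 0.27), and the stress gene Trp53inp1 35.1 ± 5.79 and 7.66 ± 1.73 CPM in the same order (log2 2.20 ± 0.17). Ccnd1, the cyclin D1 gene, which FOXO factors are known to repress, was also higher, with 26.8 ± 4.57 CPM in LT-HSCs and 5.08 ± 4.13 CPM in GMPs (log2 2.32 ± 0.37). The list thus pools activated and repressed targets, and its counts and median are not a measure of FOXO activity.

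The FOXO targets lower in LT-HSCs included the transcription factor gene Klf4, with 1.64 ± 0.720 CPM in LT-HSCs (SD, n = 7) and 12.1 ± 4.59 CPM in GMPs (n = 4; log2 -2.91 ± 0.32). The edgeR adjusted p of these 5 named targets ran from 2.96e-10 for Trp53inp1 to 0.000191 for Ccnd1. The peroxiredoxin gene Prdx3 (log2 -0.85 ± 0.12, edgeR adjusted p = 3.44e-06) and the growth arrest gene Gadd45a (-0.80 ± 0.20, 0.00162) were lower too, but with total-count scaling their changes were -0.07 and -0.02 with adjusted p of 0.651 and 0.944. Between the LT-HSC fractions 1 target was higher and 1 lower in EMCN+, with a median log2 change of 0.10. The higher one was Insr, which both lists hold. In the blocked fit of the 6 paired LT-HSC libraries 4 targets passed, against 6.76% of all genes tested there.

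The partners of TXNIP were read from a list of 28 thioredoxin, peroxiredoxin, arrestin, glucose transporter and carbohydrate-response genes, of which 25 were tested. In LT-HSCs 12 were higher and 9 lower than in GMPs, with a median log2 change of 0.30 against 0.03 over all tested genes, of which 32.5% were higher and 29.9% lower. Higher were the glucose transporter gene Slc2a3 with 85.3 ± 3.87 CPM in LT-HSCs (SD, n = 7) and 11.6 ± 1.96 CPM in GMPs (n = 4; log2 2.89 ± 0.12), and Arrdc4, the arrestin gene most like Txnip, with 38.5 ± 6.23 and 8.93 ± 1.09 CPM in the same order (log2 2.11 ± 0.16). The sulfiredoxin gene Srxn1 (log2 2.52 ± 0.26) and the thioredoxin reductase gene Txnrd3 (1.87 ± 0.22) were also higher. Txn1, which encodes the thioredoxin that TXNIP binds, had 46.4 ± 6.00 CPM in LT-HSCs and 174 ± 13.0 CPM in GMPs (log2 -1.91 ± 0.09), so it moved opposite to Txnip.

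Mlx, the partner of MondoA and ChREBP, was likewise lower, with 12.1 ± 1.79 CPM in LT-HSCs (SD, n = 7) and 43.3 ± 2.35 CPM in GMPs (n = 4; log2 -1.83 ± 0.13). The peroxiredoxin genes Prdx5 (log2 -1.73 ± 0.10) and Prdx1 (-1.31 ± 0.10) were lower as well. The edgeR adjusted p of these 8 named genes ran from 2.24e-14 for Slc2a3 to 2.18e-07 for Txnrd3. Between EMCN+ and EMCN- LT-HSCs 0 of the 25 differed by edgeR, 1 by DESeq2 and 0 by limma-voom, with 6, 6 and 5 at an unadjusted p under 0.05 in the same order, where the share of all tested genes was 13.9%, 13.7% and 15.8%. The smallest p values were those of the hexokinase gene Hk2, with 47.4 ± 3.88 CPM in EMCN+ LT-HSCs (SD, n = 4) and 35.4 ± 2.89 CPM in EMCN- LT-HSCs (n = 3; log2 0.42 ± 0.12, edgeR adjusted p = 0.0734), and of Prdx1, with 90.0 ± 7.76 and 119 ± 15.0 CPM (-0.41 ± 0.12, 0.0929). With mouse as a block Prdx1 passed, with an edgeR adjusted p of 0.032 in 11 libraries and 0.0142 in the 6 libraries of complete pairs, where 5 genes of the list and 6.76% of all genes tested passed. Hk2 passed in the 6 paired libraries (0.0355) and was the gene called by DESeq2 (0.0297).

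The sestrins act on mTORC1, and the last list held 49 genes of GATOR, Ragulator, AMPK, mTOR and autophagy initiation, of which 47 were tested. In LT-HSCs 20 were higher and 10 lower than in GMPs, with a median log2 change of 0.13 against 0.03 over all tested genes, of which 32.5% were higher and 29.9% lower. Higher were the AMPK subunit genes Prkaa2, with 8.65 ± 1.63 CPM in LT-HSCs (SD, n = 7) and 0.714 ± 0.638 CPM in GMPs (n = 4; log2 3.53 ± 0.40), and Prkag2, with 99.6 ± 10.3 and 23.1 ± 3.04 CPM in the same order (log2 2.11 ± 0.12). Prkaa2 in GMPs was near the floor of 3 counts, which is 0.473 to 0.683 CPM in these libraries. The size of its change is therefore uncertain, and it ran from 3.165 to 4.124 with a library left out. Of the 6 AMPK subunits in the list 3 were higher and 1 lower: named after their values were seen, Prkaa1 had a log2 change of 0.47 ± 0.12 and Prkag1 of -0.63 ± 0.14 (edgeR adjusted p = 0.00197 and 0.000411). Castor2, of the arginine sensor family, rose by 2.43 ± 0.20 on the log2 scale and the autophagy kinase gene Ulk1 by 1.83 ± 0.13. Lower in LT-HSCs were all 5 subunits of Ragulator, which anchors mTORC1 at the lysosome. Lamtor4 had a log2 change of -2.51 ± 0.14, Lamtor2 of -1.23 ± 0.13 and Lamtor5 of -1.22 ± 0.16, and, named after their values were seen, Lamtor3 of -0.77 ± 0.15 and Lamtor1 of -0.59 ± 0.11 (edgeR adjusted p = 0.000128 and 0.000112). With total-count scaling Lamtor3, Lamtor1 and Prkag1 turned to 0.01, 0.19 and 0.15 and no longer passed, while Lamtor2, Lamtor4 and Lamtor5 stayed lower. Sec13, shared by GATOR2, the nuclear pore and the COPII coat, had 23.5 ± 3.81 CPM in LT-HSCs and 82.6 ± 5.65 CPM in GMPs (log2 -1.82 ± 0.10).

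The edgeR adjusted p of the 8 mTORC1 genes chosen by rule ran from 2.08e-12 for Lamtor4 to 1.19e-06 for Lamtor5. Between EMCN+ and EMCN- LT-HSCs 0 of the 47 differed by edgeR, DESeq2 or limma-voom, with 2 at an unadjusted p under 0.05 by each tool, against the same shares of all tested genes of 13.9%, 13.7% and 15.8%, and the median log2 change was 0.06. The smallest edgeR adjusted p values were 0.24 for Sec13 and 0.326 for Ulk1. The 4 lists share some genes, such as Insr and Prdx3, and hold none of the 7 genes described first.

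**Figure D5:**
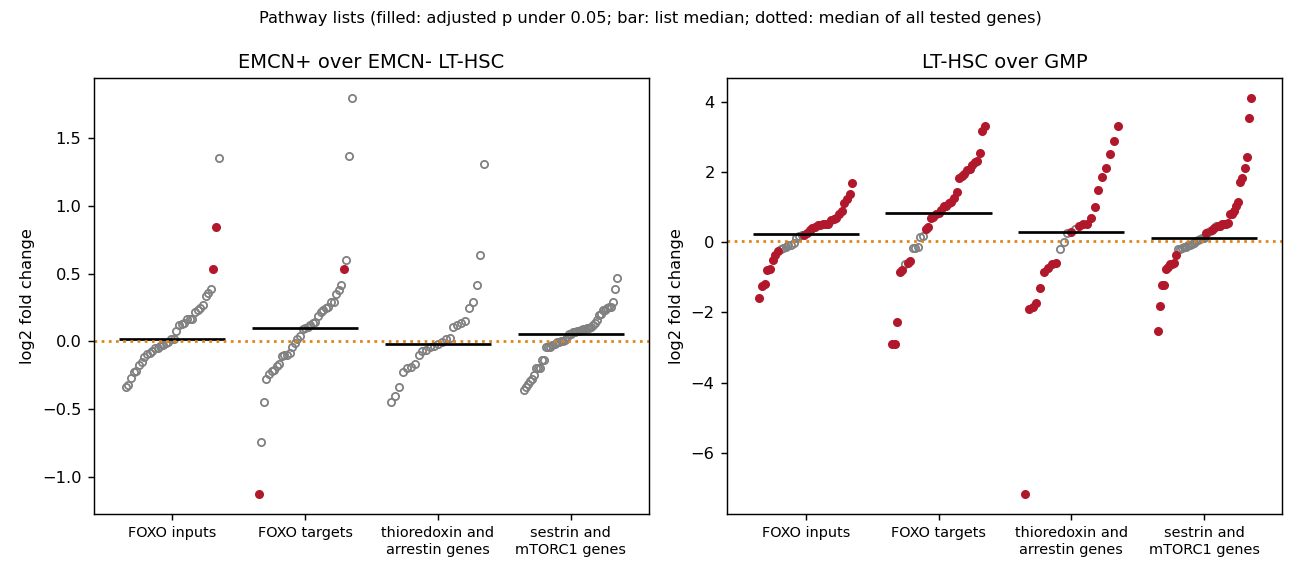
Log2 fold change (vertical axes) of each tested gene of the 4 pathway lists, for EMCN+ versus EMCN- LT-HSCs and for LT-HSCs versus GMPs, filled where the edgeR adjusted p was under 0.05, with the list median as a bar and the median of all tested genes as a dotted line. Against GMPs the list medians lie at 0.13 to 0.83 with genes on both sides of 0, and between the LT-HSC fractions they lie at -0.02 to 0.10 with 4 filled points, 1 gene standing in 2 lists.

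The genes whose pattern over the 11 libraries was most like each of the 7 were found by the root mean square distance between log2 CPM values centred on each gene's mean, among 12097 genes with a symbol. The distance is on the log2 scale, and each pattern is dominated by the step between LT-HSCs and GMPs. Adgrg1, an adhesion G-protein-coupled receptor gene, was nearest to Txnip at 0.112, with 1120 ± 119 CPM in EMCN+ LT-HSCs (SD, n = 4), 979 ± 54.3 CPM in EMCN- LT-HSCs (n = 3) and 93.5 ± 20.5 CPM in GMPs (n = 4). Ppp1r9a followed at 0.170. Foxo3 was nearest to Efcab14 at 0.0960 and to the nuclear factor gene Nfix at 0.114, and Foxo4 to the MAX-binding repressor gene Mnt at 0.108 and the autophagy receptor gene Sqstm1 at 0.137. Sesn1 was nearest to the transporter gene Abcg2 at 0.105 and to Acot1 at 0.111, and Sesn3 to Ro60 at 0.127 and the RNA sensor gene Ddx58 at 0.134.

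Foxo1 and Sesn2 had no gene as close. St3gal1, a sialyltransferase gene, was at a distance of 0.259 from Foxo1, and Bpgm was at 0.243 from Sesn2 and Gpr171 at 0.251. St3gal1 had 163 ± 16.7 CPM in EMCN+ LT-HSCs (SD, n = 4), 116 ± 16.1 CPM in EMCN- LT-HSCs (n = 3) and 23.8 ± 4.74 CPM in GMPs (n = 4). Among the 7 genes themselves the closest pair was Foxo3 and Sesn1, at a distance of 0.175, followed by Txnip and Sesn3 at 0.354.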

How the data were processed

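Bone marrow cells were sorted, RNA of 3000 to 5000 LT-HSCs per sample was made into libraries with a stranded total RNA kit for very small input, and read pairs were sequenced. No number of sorted cells was recorded here for GMPs. The labels give the molecule as polyA RNA, although the kit named is for total RNA. The authors deposited estimated counts per gene, for which the submitters' processing notes name Salmon and cutadapt. The genome build, annotation, strand setting and rounding, like the versions of these tools, are not given in the sources used here. The values are whole numbers, and rounding was applied again before each fit. Of 54347 identifiers 54094 matched GENCODE M21 (GRCm38) without and 53307 with the version.

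The fit used edgeR 4.0.16 (R 4.3.3) on the 11 libraries at once (filterByExpr at a minimum count of 10, TMM factors, robust quasi-likelihood, no mouse block). Adjustment was by Benjamini-Hochberg over 14915 genes at 0.05. LT-HSC versus GMP weighted the 7 LT-HSC libraries equally. Log2 CPM used a prior count of 2, and intervals are 95%. Promoters came from RefSeq (GRCm38.p6). Alternatives were RLE, upper-quartile and total-count scaling, no filter, at least 5 CPM in 3 libraries, DESeq2 1.42.0, limma-voom (limma 3.58.1), no robust dispersion, mouse as a block, LT-HSC libraries alone and each library left out. The script was tested on simulated data in which few genes changed and no mouse effect was set. That setting is unlike the LT-HSC versus GMP comparison, so the test does not bear on the scaling there.

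The genes, lists and tests were chosen with earlier results of these data known. Named list genes were up to 4 per direction with the largest called change and a mean of at least 5 CPM, or, with no call in a list, its 2 genes of smallest p, and for each of the 7 genes the 2 most alike in pattern. Not each gene so allowed was named, and some are not reported here. Within EMCN+ LT-HSCs, EMCN- LT-HSCs or GMPs replicates are separate mice, and their counts differed beyond sampling (chi-square per degree of freedom 8.89 to 37.8 over 15 pairs). The 7 LT-HSC libraries came from 4 mice, so n = 7 counts libraries. The SE and p of the main fit took these libraries as independent. EMCN+ and EMCN- libraries of a mouse come from the same animal by the labels, and their deviations from the group means correlated at 0.165 to 0.223 in 3 pairs. Over all 10 same-mouse pairs, GMPs included, the range was -0.0606 to 0.223. Floors cover counting error only, since reads carried no molecular identifiers in the counts used.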

Additional observations from a re-analysis of the deposited data

Results flagged for a closer look

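Among 14 groups of 4 libraries, the 7 genes in EMCN+ LT-HSCs and in GMPs, 1 held a library whose gap to its nearest neighbour, divided by the range of the group, passed Dixon's 95% critical value. Sesn2 was at 5.01 CPM in GMP replicate 3 and at 1.96 to 2.05 CPM in the other 3 GMP libraries, from 22 counts against 11 to 13. A criterion at this level is passed by chance in about 1 in 20 groups.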

How the results depend on the processing

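All 21 values of the 7 genes against GMPs passed the test with the same direction under each of 20 alternatives (420 values). For EMCN+ versus EMCN- LT-HSCs 150 of 154 values kept both direction and call, 1 gained a call and 3 changed sign. Foxo1 passed with mouse as a replicate block in the 6 libraries of complete pairs (0.63, edgeR adjusted p = 0.0287), a fit in which 6.76% of tested genes passed. The block changed no other call of the 7 genes. Sesn2 turned to 0.0583 with total-count scaling. Leaving out each library gave -0.158 to 0.0519 for Sesn2 and -0.0150 to 0.131 for Foxo3, and the cause was not tested. Genes called between the fractions numbered 293, against 529 without a filter, 451 with DESeq2, 908 with the block in 6 libraries, 374 with the block in 11 libraries, and 55 to 338 with a library left out (55, 194 and 191 without EMCN- replicates 1, 2 and 4 in turn, and 105 and 184 without EMCN+ replicates 2 and 4). Total-count scaling moved the median of all genes by 0.11 there and by 0.78 against GMPs, where upper-quartile factors moved it by 0.12. The share of calls that were higher became 76.3% (39.2% with TMM factors) between fractions and 82.6% (52.1%) against GMPs, and was 56.1% in the 7 LT-HSC libraries alone and 50.8% with limma-voom between fractions. Of 794 values for named list genes 780 kept their side, 10 lost and 4 gained a call, and 0 reversed. At 11 to 22 counts Sesn2 in GMPs is limited by depth, as is Foxo1 in GMPs at 18 to 28 counts.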
